A study of Mus musculus with 64 samples.

Results

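The 10 genes described here encode Kruppel-like factors (KLFs): Klf2, Klf4, Klf6, Klf7, Klf9, Klf10, Klf12, Klf13, Klf15 and Klf16. They were found in the count tables by their Ensembl identifiers, as 10 of 55414 gene identifiers in the acute experiment and 10 of 55573 in the continuous experiment. All 10 passed the filter on low counts in each data set, so no member was lost.

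RNA-seq was performed on WT mice and on mice of the Angelman syndrome (AS) model, which were treated with corticosterone (CORT) or vehicle. AS mice inherited from their mother an allele of Ube3a that lacks exon 5 (Ube3a tm1Alb, Ube3a m-/p+), and all mice were male F1 hybrids of a C57BL/6J father and a 129sv Ube3a m+/p- mother, 10 to 18 weeks old. In the acute experiment, left hippocampi were collected 3 h after a subcutaneous injection of vehicle or 3 mg/kg CORT, with 6 mice in each of the 4 groups. In the continuous experiment, left hippocampi and livers were collected on day 6 from mice that carried under the skin a pellet with vehicle or with 20 mg of CORT, with 5 mice in each group. Neurons silence the paternal Ube3a allele, so AS neurons lack UBE3A, whereas most other cells still use the paternal copy.

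KLF proteins carry 3 zinc fingers at their C-terminus and bind GC-rich boxes in promoters, of which CACCC is the core, while their N-termini recruit different partners. Klf9, Klf10, Klf13 and Klf16 bind the corepressor Sin3a, Klf2, Klf4, Klf6 and Klf7 recruit acetyltransferases and mostly activate, Klf12 binds the corepressor CtBP, and Klf15 stands apart. Klf9 and Klf15 are known as direct targets of the glucocorticoid receptor (GR). Klf9 is known in hippocampal neurons for its part in late maturation of granule cells, and Klf15 in liver for the control of amino acid breakdown and gluconeogenesis.

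Because Klf9 and Klf15 carried most of the CORT responses below, the 250 bases before their annotated starts are shown, from the RefSeq annotation on GRCm38.p6. Klf9 lies on the plus strand of chromosome 19, with the window chr19:23140976-23141225, and Klf15 on the plus strand of chromosome 6, with the window chr6:90462326-90462575. Capitals mark CACCC or its reverse complement GGGTG, and CACGTG, the E-box of basic helix-loop-helix factors, which was searched after the sequence had been read.
Klf9: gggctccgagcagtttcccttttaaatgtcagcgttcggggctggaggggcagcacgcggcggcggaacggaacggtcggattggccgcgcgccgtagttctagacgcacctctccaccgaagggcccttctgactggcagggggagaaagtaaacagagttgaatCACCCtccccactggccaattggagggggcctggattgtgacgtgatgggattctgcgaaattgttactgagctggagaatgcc
Klf15: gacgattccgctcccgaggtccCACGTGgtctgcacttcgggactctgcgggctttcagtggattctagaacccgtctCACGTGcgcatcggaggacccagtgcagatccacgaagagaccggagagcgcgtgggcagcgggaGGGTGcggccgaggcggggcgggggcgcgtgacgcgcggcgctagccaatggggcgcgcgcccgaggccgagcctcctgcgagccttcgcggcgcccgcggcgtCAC
The Klf15 window held 3 E-boxes, at -228, -172 and -3 from the start, and the last of them runs across the start, so that only its CAC is printed. Of 32851 promoter windows of 300 bases (250 before and 50 after a start), 7.15% held at least 1 CACGTG and 0.0883% held at least 3. Windows were found for 8 of the 10 members, and CACGTG also stood once each in those of Klf4 and Klf6. CACCC stood in the windows of Klf2, Klf7, Klf9, Klf12, Klf13 and Klf15, and in 57.5% of all windows. The letters ACANNNTGT, the core of the glucocorticoid response element, and AGAACA, its single arm, were in none of the 8 windows, against 6.85% and 19% of all windows. Matches were counted on either strand and are a description of the letters only.

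Between 18612550 and 21783009 reads per library were counted on genes, and values are given as CPM, a count relative to the size of its library. A count of 3, taken as the floor, is 0.133 to 0.16 CPM, and every member stood above this in every group mean. Replicates are separate mice. Reads that the counting set aside for low alignment quality divided the acute libraries: 1877 to 2237 in H1 to H16 and 2640 to 2850 in H17 to H24, which are 2 of the 6 AS vehicle mice and all 6 AS CORT mice. These are few beside the 21917187 to 24235835 reads of each acute library, and their number is used here only to mark the division. In the liver, 6 of the 20 libraries stood apart on the second principal component, which is taken up with the liver results. H9 (AS vehicle) and H13 (WT vehicle) of the continuous hippocampus were left out of the fits, as in the study's methods. Summed CPM of 6 neuronal markers was 8530 to 13400 in hippocampus and 52.3 to 195 in liver, and that of 6 hepatocyte markers, of which Ttr is shared with choroid plexus, was 94800 to 141000 in liver. Ube3a mRNA itself was called lower in AS mice in liver (log2 fold change -0.55, edgeR adjusted p = 0.0191 with vehicle, and -0.48, edgeR adjusted p = 0.0133 with CORT), and in hippocampus it was 63.2 to 84.7 CPM in WT vehicle and 64.1 to 79.9 CPM in AS vehicle mice of the acute experiment. Summed CPM of 5 choroid plexus markers reached 2840 in a WT vehicle library of the continuous hippocampus, and its part in the member values was not tested. A count of Ube3a over the whole gene includes the transcript without exon 5.

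Per kilobase of exon, Klf9, Klf13 and Klf16 were the most abundant members in hippocampus, and Klf15 and Klf9 in liver. In WT vehicle mice of the acute experiment, Klf9 stood at 57.0 ± 2.31 RPKM (CPM per kilobase, SD, n = 6), Klf13 at 45.7 ± 3.58 and Klf16 at 29.3 ± 3.17. Klf15 followed at 10.9 ± 1.90, and the other 6 members lay between 2.48 (Klf4) and 6.94 (Klf10). Among these 6 the ranges of neighbours overlapped, except that all values of Klf4 lay below those of Klf12. The continuous hippocampus gave Klf9 at 41.2 ± 3.26 and Klf13 at 40.0 ± 2.82 RPKM (n = 4), which did not differ beyond their spread, then Klf16 at 25.2 ± 2.02 and Klf15 at 7.17 ± 0.791. In liver, Klf15 led with 50.0 ± 14.4 RPKM (n = 5), followed by Klf9 with 21 ± 5.13 and Klf13 with 8.63 ± 6.08, and the other members lay between 0.431 (Klf4) and 4.78 (Klf12). The place of Klf13 above Klf12 rests on 2 livers, L1 and L4, at 112 to 118 CPM, against 29.9 to 34.3 CPM in the other 3.

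**Figure D1:**
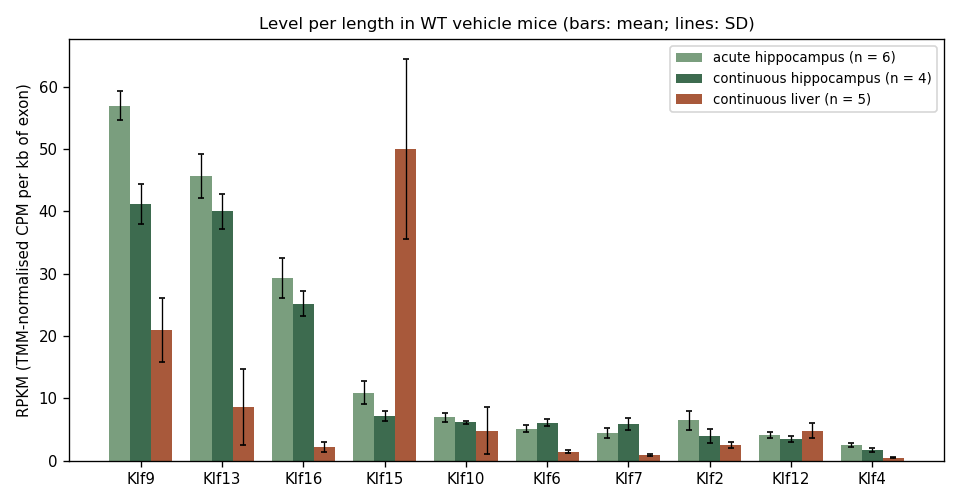
Mean RPKM (CPM per kilobase of exon) of the 10 members in WT vehicle mice, with bars for the acute hippocampus (n = 6), the continuous hippocampus (n = 4) and the liver (n = 5) and error bars for the SD. Klf9, Klf13 and Klf16 are the highest in both hippocampal data sets, and Klf15 is the highest in liver at 50.0 RPKM.

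The acute experiment asked how the hippocampus responded 3 h after CORT in either genotype. Klf15 rose in both genotypes, by 1.4 times in WT and 1.37 times in AS mice, and Klf9 rose by 1.22 times in AS mice. Klf16 and Klf7 fell in AS mice by 1.36 and 1.34 times. In WT mice 1 of 10 members passed the threshold, beside 1.48% of the 14611 genes tested, and in AS mice 4 of 10, beside 17.9%. The median log2 fold change of the members was 0.05 in WT and -0.09 in AS mice, and that of all genes was -0.002 and 0.006.

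Klf15, the activator of amino acid breakdown, was measured at 25, 28.6 and 40.1 CPM in WT vehicle mice (lowest, median and highest of 6) and at 32.0, 44.1 and 52.1 CPM in WT CORT mice. The WT vehicle mice H1 (40.1 CPM) and H4 (32.2 CPM) lay within the CORT range, and the other 4 lay below it. AS vehicle mice held 24.2, 26.7 and 30.4 CPM and AS CORT mice 32.7, 37.3 and 39.9 CPM, so that the AS groups did not overlap. The log2 fold change was 0.49 (SE 0.104, edgeR adjusted p = 0.00982) in WT and 0.45 (SE 0.105, edgeR adjusted p = 0.00511) in AS mice. Their difference was -0.04 (95% interval -0.34 to 0.27). With only the WT groups in the fit the WT call was lost (0.49, edgeR adjusted p = 0.0908).

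Klf9, the Sin3a-binding target of GR, stood at 262, 273 and 294 CPM in WT vehicle and 276, 300 and 325 CPM in WT CORT mice. AS vehicle mice had a lower and wider range of 210, 248 and 279 CPM, and AS CORT mice had 278, 298 and 330 CPM, which overlapped in a single vehicle mouse (H13, 279 CPM). The log2 fold change was 0.28 in AS mice (SE 0.0578, edgeR adjusted p = 0.00192) and 0.13 in WT mice (SE 0.0577, edgeR adjusted p = 0.417). The difference between the genotypes, 0.15 (95% interval -0.01 to 0.32), did not pass the test (edgeR adjusted p = 0.252).

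**Figure D2:**
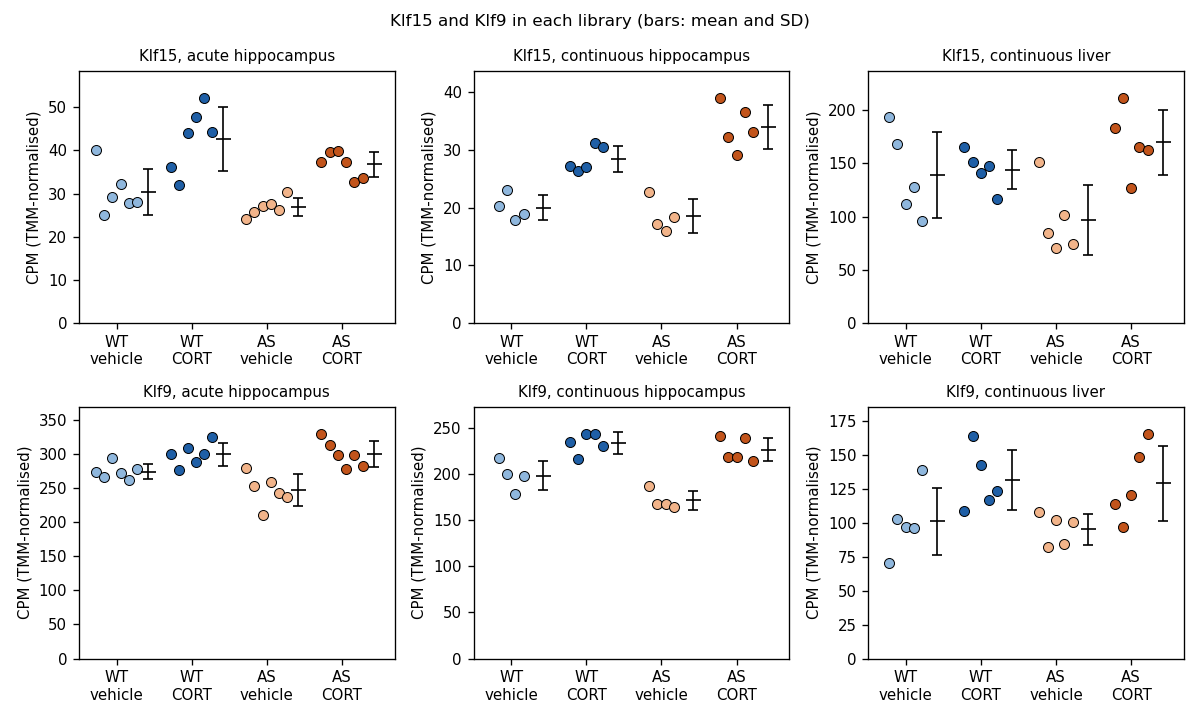
CPM of Klf15 and Klf9 in each library of the acute hippocampus, continuous hippocampus and continuous liver, by group, with the mean and SD. In the continuous hippocampus the CORT mice lie above all vehicle mice for Klf15 in both genotypes, whereas in liver vehicle and CORT overlap in both genotypes.

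Of the other Sin3a-binding members, Klf16 fell in AS mice. It stood at 62.7, 84.6 and 94.3 CPM with vehicle and at 51.2, 59.9 and 65.0 CPM with CORT, a log2 fold change of -0.44 (SE 0.0878, edgeR adjusted p = 0.00153). In WT mice the values were 68.6, 78.3 and 90.4 CPM with vehicle and 63.8, 68.4 and 77.2 CPM with CORT (-0.18, edgeR adjusted p = 0.468), and this WT change was called with GC and length trends removed (-0.25, edgeR adjusted p = 0.0282). The AS vehicle mice themselves were divided: H13 to H16 stood at 84.1 to 94.3 CPM, and H17 and H18, which share the higher number of low-quality reads with all AS CORT mice, at 66.9 and 62.7 CPM. Klf13 and Klf10 were called in neither genotype, with log2 fold changes of 0.14 and -0.20 in WT and 0.08 and -0.13 in AS mice. With only H13 to H16 as AS vehicle mice Klf10 was called in AS mice (-0.25, edgeR adjusted p = 0.0435), and with the low-quality covariate it had 0.13 (edgeR adjusted p = 0.911).

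Among the activators, Klf7, known for axon growth, fell in AS mice. Its CPM was 31.5, 39.4 and 47.1 with vehicle and 27.7, 28.8 and 32.3 with CORT, a log2 fold change of -0.42 (SE 0.103, edgeR adjusted p = 0.00728). Here too H17 and H18 were the lowest vehicle mice, at 35.2 and 31.5 CPM. The exons of Klf7 overlap those of Gm13748 and Gm26649 on the other strand, and whether the counting used strand is not given in the sources used here. Klf2, which endothelial cells use to respond to flow, differed between the CORT groups: it stood at 14.2, 16.7 and 18.0 CPM in WT CORT and at 9.98, 10.7 and 11.6 CPM in AS CORT mice, with no overlap. This log2 difference was -0.61 (AS minus WT, SE 0.137, edgeR adjusted p = 0.00251) and 1 of 10 members passed in edgeR as reported, beside 24.9% of all genes. All AS CORT mice lay within H17 to H24 and all WT CORT mice within H1 to H16. Genotype and the division by low-quality reads therefore cannot be told apart between the CORT groups. Klf16 (-0.23, SE 0.0879, edgeR adjusted p = 0.0600) passed in this contrast with DESeq2 (adjusted p = 0.0480), limma-voom (0.0293), only the 2 groups (0.0209), either subset of AS vehicle mice (0.0264 and 0.0115) or without H15, H17, H18 or H21 (0.0272 to 0.0495). Klf12 (0.35, SE 0.135, edgeR adjusted p = 0.0587) passed without H7 (0.41), H9 (0.44) or H12 (0.39), Klf4 (-0.28, edgeR adjusted p = 0.0920) without H9 (-0.34), Klf15 (-0.22, edgeR adjusted p = 0.125) with limma-voom (-0.25) or without H8 (-0.29), and Klf7 (-0.19, edgeR adjusted p = 0.175) with limma-voom (-0.26) or with GC and length trends removed (-0.28). With the low-quality covariate none of these passed, and Klf16 had 0.21 and Klf7 0.14 in the other direction, beside -0.01 for Klf4, 0.38 for Klf12 and -0.33 for Klf15 (edgeR adjusted p = 0.938 to 0.998). The vehicle groups had Klf2 at 8.95, 11.8 and 17 CPM in WT and 8.67, 11.8 and 16 CPM in AS mice. Klf2 in WT mice changed by 0.46 (edgeR adjusted p = 0.11), and it was called with limma-voom (0.46, adjusted p = 0.0499), with only H17 and H18 as AS vehicle mice (0.46, edgeR adjusted p = 0.0348) or without the WT vehicle mouse H1 (0.58, edgeR adjusted p = 0.0120). Klf4 and Klf6 were not called in either genotype by edgeR, but limma-voom called Klf6 in AS mice (-0.25, adjusted p = 0.0319). Klf12 was not called in either genotype and was low in the WT CORT mice H8 and H11 (15 and 17.4 CPM, against 29.0 to 33.1 CPM in the other 4).

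Summed CPM of 7 markers of brain endothelium is given beside Klf2: it was 112 to 176 in WT vehicle, 121 to 175 in WT CORT, 147 to 178 in AS vehicle and 119 to 137 in AS CORT mice, and Cldn5 and Tek of this list fell with CORT in AS mice. None of the 7 markers was at 0 in any group. Genes of other marker lists were also called with CORT in AS mice. Summed CPM of 4 oligodendrocyte markers was 2010 to 4050 with vehicle and 1360 to 2670 with CORT in AS mice (medians 2980 and 1930), and 2180 to 4590 and 1570 to 4780 in WT mice, and Mbp and Mag of this list fell in AS mice. That of 9 immediate early genes, which neuronal activity induces, was 251 to 476 and 196 to 430 in AS mice (medians 358 and 264) and 300 to 733 and 321 to 554 in WT mice, and Egr1 and Fosb fell in AS mice. Cx3cr1 and P2ry12 of 4 microglial markers and Neurod6 of 6 neuronal markers fell in AS mice as well, and Aldh1l1 of 4 astrocyte markers rose. Of all genes 9.62% fell and 8.25% rose in this comparison, and the marker calls are to be read against these shares. The markers were not refitted with the low-quality covariate or with only H17 and H18, where 1.03% and 0.89% of all genes were called. Fewer cells of a type and less RNA per cell cannot be told apart in these bulk samples, and the part of these cell types in the Klf2, Klf7 and Klf16 values was not tested.

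The acute calls in AS mice depended on which vehicle libraries were used. With the division by low-quality reads as a covariate, 0 of the 10 members were called for CORT in AS mice by edgeR: Klf9 had 0.32 (edgeR adjusted p = 0.0550), Klf15 0.38 (0.429), Klf7 -0.19 (0.825) and Klf16 -0.13 (0.831). With only H17 and H18 as AS vehicle mice, Klf9 alone was called (0.32, edgeR adjusted p = 0.0238). Of all genes 1.03% and 0.89% were called under these settings, and the counts of 0 and 1 of 10 members are to be read against these shares. With only H13 to H16, all 4 kept their calls, beside 30.3% of all genes, with log2 fold changes of 0.25 for Klf9, 0.48 for Klf15, -0.54 for Klf7 and -0.58 for Klf16. The Klf2 difference between the CORT groups was -0.20 (edgeR adjusted p = 0.953) with the covariate. The covariate is estimated only from the AS vehicle mice, H17 and H18 against H13 to H16, because every other group lies on 1 side of the division. What the division stands for was not tested.

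**Figure D3:**
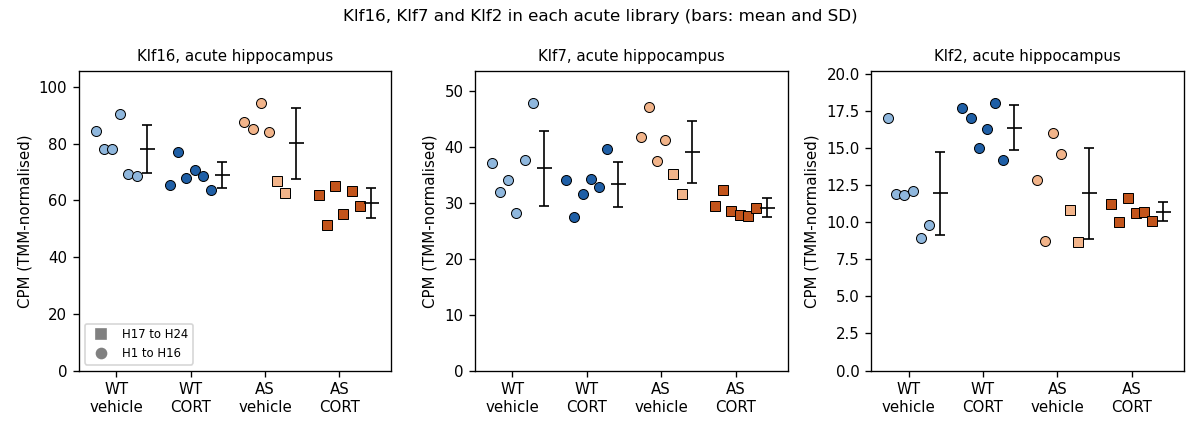
CPM of Klf16, Klf7 and Klf2 in each of the 24 acute hippocampus libraries, with squares for H17 to H24, circles for H1 to H16, and the mean and SD beside each group. H17 and H18 are the lowest AS vehicle mice for Klf16 and Klf7. Klf2 does not overlap between the CORT groups, which are all squares in AS and all circles in WT mice.

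In the vehicle mice of the acute experiment 0 of 10 members differed between genotypes, beside 0.157% of all genes, although edgeR gave Klf9 and Klf10 unadjusted p-values of 0.0137 and 0.0461, under 0.05 like 9.54% of all genes; DESeq2 and limma-voom also called 0. The interaction (response to CORT in AS mice less the response in WT mice) passed for 0 of 10 members, beside 4.49% of all genes. Klf2 came nearest with -0.61 (95% interval -1.01 to -0.21, edgeR adjusted p = 0.0639), and Klf16 (-0.26) and Klf7 (-0.30) also had edgeR unadjusted p-values under 0.05, of 0.0454 and 0.0473, so that 3 of 10 members were under this value, beside 23.6% of all genes. DESeq2 called 1 member, Klf2, and 1226 of all genes, and limma-voom called 2, Klf2 and Klf7, beside 22.9% of all genes. With H13 to H16 as the AS vehicle mice edgeR called 3, Klf2 (-0.75), Klf7 (-0.42) and Klf16 (-0.41), beside 19.2% of all genes. With the low-quality covariate the values were -0.32 for Klf2, -0.07 for Klf7 and 0.05 for Klf16, and with only H17 and H18 they were -0.33, -0.08 and 0.04, with no member called and 1 and 0 of all genes, against 656 as reported. Klf2 was also called when H1 (-0.74, edgeR adjusted p = 0.0254), H17 (-0.65, 0.0362) or H18 (-0.70, 0.0195) was left out.

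After 5 days with a CORT pellet, Klf15 and Klf9 were higher in the hippocampus of both genotypes. Klf15 rose by 1.42 times in WT and 1.84 times in AS mice, Klf9 by 1.18 and 1.32 times, Klf13 rose by 1.24 times in AS mice, and Klf10 fell by 1.4 times in AS mice. In WT mice 2 of 10 members were called, beside 2.92% of the 14949 genes tested, and in AS mice 4 of 10, beside 3.77%. The median log2 fold change of the members was 0.05 and -0.00, beside 0.003 and -0.003 over all genes, with called members on either side of 0 in AS mice. Summed CPM of the 10 members, to which Klf9 and Klf13 contribute most, was 684 to 748 in WT vehicle and 705 to 832 in WT CORT mice, and 651 to 690 in AS vehicle and 758 to 836 in AS CORT mice, where the groups did not overlap.

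Markers of other cell types moved with CORT in the same hippocampi. Summed CPM of 4 astrocyte markers was 1130 to 1310 with vehicle and 821 to 972 with CORT in WT mice, and 1030 to 1120 and 828 to 970 in AS mice, and Gfap and Aqp4 of this list fell in both genotypes. That of 4 microglial markers was 218 to 242 and 181 to 203 in WT and 200 to 224 and 174 to 197 in AS mice, and P2ry12 and Cx3cr1 fell in both. In WT mice the brain endothelium markers stood at 171 to 198 and 136 to 162 CPM, and 3 blood markers at 35.5 to 51.3 and 66.3 to 164 CPM. No marker of these lists was at 0 in all mice of a group, neuronal markers overlapped between vehicle and CORT in both genotypes, and the part of these cell types in the member values was not tested.

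Klf15 was measured at 20.3, 23, 17.9 and 18.9 CPM in the 4 WT vehicle mice and at 27.2, 26.4, 27.1, 31.3 and 30.6 CPM in the 5 WT CORT mice. In AS mice it stood at 22.8, 17.2, 15.9 and 18.4 CPM with vehicle and at 39.0, 32.3, 29.2, 36.6 and 33.2 CPM with CORT. The groups did not overlap in either genotype, and 4 of the 5 AS CORT mice lay above the highest WT CORT mouse. The log2 fold change was 0.51 (SE 0.103, edgeR adjusted p = 0.00901) in WT and 0.88 (SE 0.104, edgeR adjusted p = 3.44e-05) in AS mice. Their difference was 0.37 (95% interval 0.06 to 0.67), with an edgeR unadjusted p of 0.0206 and an adjusted p of 1.0. In the left-out libraries Klf15 stood at 23.5 (H9) and 23.1 CPM (H13).

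Klf9 stood at 217, 200, 179 and 198 CPM in WT vehicle mice and at 235, 216, 244, 244 and 230 CPM in WT CORT mice, where the highest vehicle mouse just reached the lowest CORT mouse. AS vehicle mice had 187, 168, 168 and 164 CPM, and all AS CORT mice lay above them, at 241, 219, 219, 239 and 214 CPM. The log2 fold change was 0.24 (SE 0.0589, edgeR adjusted p = 0.0337) in WT and 0.40 (SE 0.0591, edgeR adjusted p = 4.13e-04) in AS mice. The WT call was lost when H3, H4, H6, H12, H15, H17 or H20 was left out (0.19 to 0.24, edgeR adjusted p = 0.0533 to 0.111), with only the WT groups in the fit (0.23, edgeR adjusted p = 0.0925), and with H9 and H13 included (0.26, edgeR adjusted p = 0.0580). With vehicle, Klf9 was lower in AS than in WT mice by a log2 difference of -0.21 that did not pass the test (edgeR unadjusted p = 0.00316, adjusted p = 0.461).

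Klf13, another Sin3a-binding member, stood at 309, 325, 275 and 295 CPM in WT vehicle and at 330, 275, 340, 354 and 357 CPM in WT CORT mice. AS vehicle mice had 262, 257, 287 and 249 CPM and AS CORT mice 344, 306, 317, 346 and 322 CPM, with no overlap. Its log2 fold change was 0.31 in AS (SE 0.0702, edgeR adjusted p = 0.0144) and 0.14 in WT mice (edgeR adjusted p = 0.358). The AS call was lost without H11 (0.30, edgeR adjusted p = 0.0535) or H19 (0.28, edgeR adjusted p = 0.0646), with only the 12 hippocampi numbered other than 1, 2, 3, 4, 7 and 8 (0.31, edgeR adjusted p = 0.112), and with H9 and H13 included (0.44, edgeR adjusted p = 0.187). Klf10, which TGF-beta induces, was spread in AS vehicle mice (34.3, 38.7, 22.3 and 31.7 CPM) and narrow in AS CORT mice (20.2, 23.4, 23.6, 23.2 and 23 CPM), with 1 vehicle mouse inside the CORT range. Its log2 fold change of -0.48 (SE 0.125, edgeR adjusted p = 0.0340) was no longer called when any of the 8 AS mice H2, H7, H8, H10, H11, H16, H18 and H19 was left out (-0.50 to -0.38, edgeR adjusted p = 0.0510 to 0.147), when only the AS groups were fitted (-0.48, edgeR adjusted p = 0.0609), with only the same 12 hippocampi (-0.41, edgeR adjusted p = 0.322) or when all 20 mice were used (-0.25, edgeR adjusted p = 0.771). Klf10 in the left-out libraries was low, at 8.17 (H9) and 13 CPM (H13), as was Klf13, at 157 and 183 CPM.

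Klf16 and the activators did not pass the CORT test in the continuous hippocampus. The acute values of Klf16 and Klf7 in AS mice, called as reported, were -0.13 and -0.19 with the low-quality covariate. They were -0.14 and -0.20 with only H17 and H18 as AS vehicle mice, and neither setting called them. The 2 experiments were not compared in a joint test. In the continuous hippocampus Klf16 had log2 fold changes of -0.13 in WT and -0.11 in AS mice, and Klf7 -0.06 and -0.13. Klf16 was higher in AS than in WT mice with vehicle, with 77.9, 81.9, 74.8 and 79.1 CPM against 72.2, 68.2, 69.5 and 59.7 CPM, without overlap, but this difference of 0.22 did not pass (edgeR adjusted p = 0.511). Between genotypes 0 of 10 members were called with vehicle, beside 0.0134% of all genes, and 0 with CORT, beside 0.0401%, while 4 and 3 of them had edgeR unadjusted p-values under 0.05, as did 7.34% and 10.2% of all genes. For the interaction edgeR called 0 members and 0 of all genes (0% of those tested), with 3.75% of all genes at an unadjusted p under 0.05, among them Klf15 (0.37) and Klf10 (-0.46, 95% interval -0.83 to -0.09). DESeq2 and limma-voom called 0 members in these 3 comparisons.

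**Figure D4:**
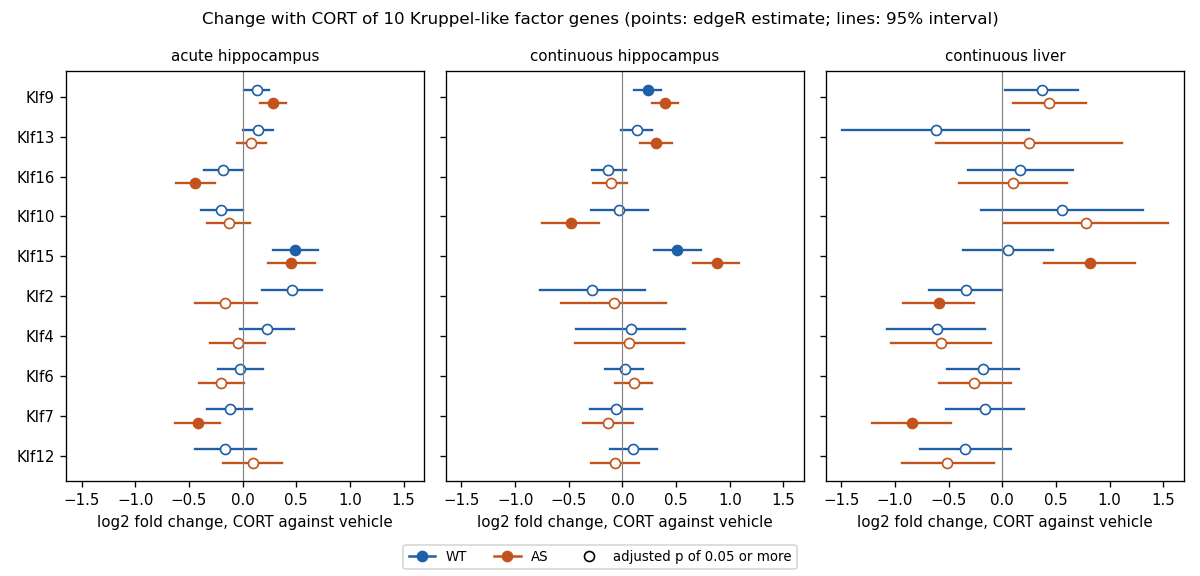
Log2 fold change of CORT against vehicle for the 10 members in WT and AS mice of the acute hippocampus, the continuous hippocampus and the continuous liver, with 95% intervals from edgeR and filled points for members past the threshold. Klf15 lies above 0 in every panel and genotype, with an interval that includes 0 in WT liver alone.

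In liver, CORT raised Klf15 by 1.76 times in AS mice, and Klf7 and Klf2 fell by 1.79 and 1.5 times in AS mice. Of the 10 members 0 were called in WT mice, beside 18.6% of the 12273 genes tested, and 3 in AS mice, beside 27.5%. Klf4, Klf9 and Klf2 had edgeR unadjusted p-values under 0.05 in WT mice (0.0111, 0.0323 and 0.0484), a share close to the 30.8% of all genes, and DESeq2 called 0 members there and limma-voom 1. The median log2 fold change of the members was -0.17 in WT and -0.08 in AS mice, beside -0.005 and -0.003 over all genes.

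The liver libraries were divided across the groups by an axis of clock genes. The second principal component of the 20 livers (18.8% of the variance, computed without the members) placed L1 and L4 (WT vehicle), L2 (AS vehicle), L3 (WT CORT) and L7 and L8 (AS CORT) on a lower side, at -26.6 to -10.2, and the other 14 livers at 2.60 to 12. Its leading genes were Dbp, Npas2, Arntl, Ciart, Usp2 and Per3, which belong to or follow the circadian clock. Dbp was measured at 60.0 to 237 CPM on the lower side and at 0.653 to 4.21 CPM on the upper side, and Arntl at 0.289 to 5.03 and 26.4 to 40.6 CPM. The hippocampi with the same numbers (H1, H2, H3, H4, H7 and H8) held Dbp at 53.8 to 85.6 CPM, above the 36.1 to 50.8 CPM of the other 12. No source used here gives a time of collection per mouse, and what separates these libraries was not tested. Liver results are therefore given with all 20 livers and, as alternatives chosen after seeing the data, with the 14 upper livers alone or with the side as a covariate.

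Klf15 stood at 193, 168, 112, 128 and 95.7 CPM in WT vehicle livers and at 165, 151, 141, 147 and 116 CPM in WT CORT livers. AS vehicle livers held 151, 84.9, 70.2, 101 and 74.4 CPM and AS CORT livers 183, 211, 127, 165 and 162 CPM. The highest value of each group came from a lower-side liver (L1, L3, L2 and L8), and the AS groups overlapped only through L2. The log2 fold change was 0.05 (SE 0.202, edgeR adjusted p = 0.910) in WT and 0.82 (SE 0.203, edgeR adjusted p = 0.00515) in AS mice. With the 14 upper livers these were 0.31 (edgeR adjusted p = 0.133) and 0.87 (edgeR adjusted p = 2.72e-04). The interaction was 0.77 (95% interval 0.17 to 1.37) with an edgeR unadjusted p of 0.0142 and an adjusted p of 0.508, and 0.57 (edgeR adjusted p = 0.682) with the upper livers.

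Klf13 showed the axis most plainly among the members. It stood at 118 (L1) and 112 CPM (L4) in 2 WT vehicle livers and at 29.9, 30.4 and 34.3 CPM in the other 3, and at 114 CPM (L2) in 1 AS vehicle liver and at 26 to 33.1 CPM in the other 4. CORT livers lay at 32.8 to 53.5 CPM in WT and 46.4 to 64.8 CPM in AS mice. Over all livers the log2 fold change was -0.62 in WT (edgeR adjusted p = 0.335) and 0.25 in AS mice (edgeR adjusted p = 0.699). Within the 14 upper livers it was 0.32 (edgeR adjusted p = 0.0744) and 0.80 (edgeR adjusted p = 1.60e-04), so that the sign in WT mice turned.

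**Figure D5:**
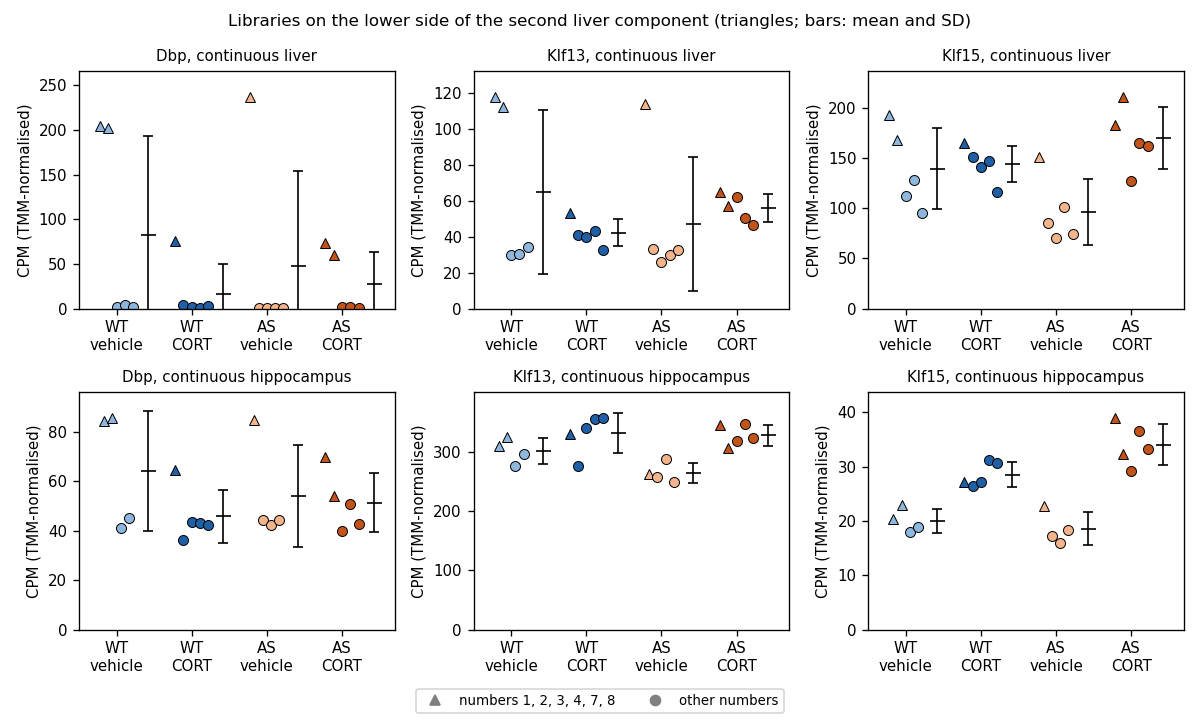
CPM of Dbp, Klf13 and Klf15 in each library of the continuous liver and continuous hippocampus, by group, with triangles for the numbers 1, 2, 3, 4, 7 and 8, which form the lower side of the second liver component, and the mean and SD (bars for Dbp in liver are cut at 0). Triangles are the highest points for liver Dbp in every group and for liver Klf13 in the vehicle groups.

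Klf9 in liver was 70.2, 103, 97.2, 96.6 and 139 CPM in WT vehicle and 109, 164, 143, 117 and 124 CPM in WT CORT mice, and 108, 82.1, 102, 84.4 and 101 CPM and 114, 96.9, 121, 149 and 166 CPM in AS mice. The groups overlapped in both genotypes. Its log2 fold change was 0.37 in WT (SE 0.162, edgeR adjusted p = 0.119) and 0.44 in AS mice (SE 0.162, edgeR adjusted p = 0.0507). The WT value was called without L17, the highest vehicle liver (0.51, edgeR adjusted p = 0.0283), and the AS value without L1, L2, L5, L8 or L17 (0.44 to 0.53, edgeR adjusted p = 0.0243 to 0.0451). All 8 other settings also called the AS value of Klf9: DESeq2 (adjusted p = 0.0272), its size factors within edgeR (0.0434), no filter on low counts (0.0420), limma-voom (0.0198), only the 2 groups (0.0420), GC and length trends removed (0.0269), the side as a covariate (0.0188) and the upper livers (0.66, edgeR adjusted p = 0.00460). Klf10 was spread in the vehicle livers, from 7.91 to 46.9 CPM in WT and from 10.7 to 28.7 CPM in AS mice, against 19.1 to 41.0 and 25.3 to 34.7 CPM with CORT. Its log2 fold changes of 0.56 and 0.78 were not called, but the WT value was 1.16 without L1 (edgeR adjusted p = 0.00773), and the AS value was called with limma-voom (0.94, 0.0223), only the 2 groups (0.79, 0.0259) or without L1 (0.78, 0.0305) or L2 (1.01, 0.0490), and with the upper livers the values were 1.11 (edgeR adjusted p = 0.0167) and 0.99 (edgeR adjusted p = 0.0192). Klf16, low in liver at 3.46 to 8.96 CPM, was not called.

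The activators were low in liver, and those that changed fell. Klf7 stood at 7.65, 7.53, 7.82, 9.23 and 7.95 CPM in AS vehicle livers and at 3.77, 3.51, 7.26, 3.95 and 3.90 CPM in AS CORT livers, where L10 alone came near the vehicle range. Its log2 fold change was -0.84 in AS (SE 0.175, edgeR adjusted p = 0.00118) and -0.16 in WT mice (edgeR adjusted p = 0.581), with an interaction of -0.68 (95% interval -1.19 to -0.17, edgeR adjusted p = 0.50). Klf2 stood at 6.64, 5.22, 5.46, 5.55 and 5.77 CPM in AS vehicle and at 3.72, 3.75, 3.92, 4.0 and 3.64 CPM in AS CORT livers, without overlap (-0.59, SE 0.159, edgeR adjusted p = 0.00900). In WT mice it was 3.04 to 5.11 CPM with vehicle and 2.25 to 4.36 CPM with CORT (-0.34, edgeR adjusted p = 0.158), and without L17 the WT value was called (-0.45, edgeR adjusted p = 0.0407). Klf2 in AS mice was not called with the 14 upper livers (-0.51, edgeR adjusted p = 0.0771). Klf4, at 0.584 to 1.51 CPM, had log2 fold changes of -0.61 in WT (edgeR adjusted p = 0.0562) and -0.57 in AS mice (0.0656). The WT value of Klf4 was called with limma-voom (-0.65) or without L3, L9, L11, L17 or L18 (-0.79 to -0.61) and the AS value without L11 (-0.70) or L18 (-0.72). Klf6 was not called.

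Klf12, the CtBP-binding repressor, ran from 25.3 to 46.3 CPM in WT vehicle and from 20.7 to 30.6 CPM in WT CORT livers, and from 24.4 to 46.3 and 18.0 to 32.1 CPM in AS mice. Its log2 fold changes were -0.35 (edgeR adjusted p = 0.264) and -0.51 (edgeR adjusted p = 0.0712). With the side as a covariate both were called, at -0.44 (edgeR adjusted p = 0.0158) and -0.40 (edgeR adjusted p = 0.0227), and the AS value was also called with limma-voom (-0.55, adjusted p = 0.0287) or without L2 (-0.61, edgeR adjusted p = 0.0267), L10 (-0.60, 0.0397) or L16 (-0.61, 0.0426). Lower-side livers held Klf12 at 18.0 to 26.3 CPM and upper-side livers at 22.9 to 46.3 CPM.

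Summed CPM of 4 Kupffer cell markers, none of them at 0, was 109 to 148 in WT vehicle and 144 to 203 in AS vehicle livers, and 53.9 to 81.4 and 55.7 to 82.2 in the CORT livers. Summed CPM of 5 markers of liver endothelium was 126 to 208 and 161 to 228 with vehicle and 112 to 192 and 121 to 176 with CORT. Summed CPM of 3 blood markers was 323 to 522 and 232 to 438 with vehicle and 218 to 301 and 115 to 176 with CORT. The part of these cell types in the Klf2, Klf4 and Klf7 values was not tested. Between genotypes 0 of 10 members were called in liver with vehicle, beside 0.0163% of all genes, and 0 with CORT, beside 0.277%, with edgeR unadjusted p-values under 0.05 for Klf15 and Klf2 with vehicle and for Klf7 with CORT, beside 10.3% and 8.29% of all genes. Without L10 the Klf7 difference between the CORT groups was called (-0.64, edgeR adjusted p = 0.0377). The interaction was called by edgeR for 0 members and 0% of all genes, with 8.11% of all genes at an unadjusted p under 0.05, and DESeq2 and limma-voom called 0 members in these 3 comparisons and 9 genes and 1 gene for the interaction.

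A joint fit of the hippocampi and livers of the continuous experiment compared tissues, without pairing the tissues of a mouse. Levels between tissues depended on the scaling: TMM factors across both tissues were 1.34 to 1.42 for hippocampi and 0.68 to 0.79 for livers, and the median log2 difference over all genes, liver against hippocampus in WT vehicle mice, was -0.157 with them and -1.016 with library sizes alone, an alternative chosen after seeing the data. The CPM and RPKM given above were scaled within each tissue, so they follow the library sizes more nearly than the joint fit. In WT vehicle mice 7 of 10 members differed with TMM factors, beside 89.6% of the 15937 genes tested, and 9 with library sizes alone, beside 90.6%. Klf15 was 13 times higher in liver with TMM factors (log2 difference 3.7) and 7.13 times higher with library sizes (2.83), and Klf12 was 2.60 (1.38) and 1.43 times higher (0.52). Klf16 (-2.65 and -3.51), Klf7 (-1.94 and -2.80), Klf13 (-1.31 and -2.18), Klf6 (-1.17 and -2.03) and Klf4 (-1.09 and -1.95) were lower in liver under either scaling. No direction can be given for the other 3. With TMM factors Klf9 differed by -0.08 (95% interval -0.35 to 0.20), Klf2 by 0.22 (95% interval -0.21 to 0.65) and Klf10 by 0.53 (95% interval -0.09 to 1.16), none past the threshold, whereas with library sizes alone Klf9 (-0.93, edgeR adjusted p = 6.18e-08) and Klf2 (-0.64, edgeR adjusted p = 0.00507) were called lower in liver and Klf10 had -0.32 (edgeR adjusted p = 0.308). With TMM factors, Klf2 was called higher with the side of the liver axis as a covariate (0.46, edgeR adjusted p = 0.0176), and Klf10 was called without L4 (0.70, edgeR adjusted p = 0.0321) or L17 (0.74, edgeR adjusted p = 0.0182).

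The CORT effect differed between tissues for 2 members in AS mice and 0 in WT mice, beside 12.1% and 7.86% of all genes. Klf10 had a difference in log2 fold change, liver minus hippocampus in AS mice, of 1.31 (SE 0.415, edgeR adjusted p = 0.0330), made of 0.78 in liver and -0.48 in hippocampus. Klf7 had a difference of -0.67 (SE 0.206, edgeR adjusted p = 0.0278), from -0.84 in liver and -0.13 in hippocampus. With library sizes alone Klf10 was not called (1.19, edgeR adjusted p = 0.0540). With all 20 mice neither was called (Klf10 1.07, edgeR adjusted p = 0.172, and Klf7 -0.58, edgeR adjusted p = 0.0773). The Klf10 call was also lost without H2, H7, H11, L8, L11, L14, L16 or L19 (1.17 to 1.28, edgeR adjusted p = 0.0504 to 0.0713) and the Klf7 call without H2, L7, L8, L14, L16 or L18 (-0.63 to -0.58, edgeR adjusted p = 0.0536 to 0.0710). With only the 26 libraries of the other numbers Klf7 had -0.43 (edgeR adjusted p = 0.265) and Klf10 1.44 (edgeR adjusted p = 0.0136). In WT mice Klf10 had 0.59, and without L1 1.21 (edgeR adjusted p = 0.0150), and Klf12 was called with the side of the liver axis as a covariate (-0.54, edgeR adjusted p = 0.0466). No WT member had an edgeR unadjusted p under 0.05 in the main comparison. Klf15 had a CORT effect that differed by -0.45 (edgeR adjusted p = 0.323) in WT and -0.02 (edgeR adjusted p = 1.0) in AS mice, and Klf9 by 0.15 and 0.08.

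Other genes of the pathway were taken from fixed lists. These were chosen with earlier results of these data known, so the counts below are a description and no independent support. Of 8 known GR targets, 5 rose with CORT in WT and 5 in AS mice of the acute experiment, 5 and 6 in the continuous hippocampus, and 4 and 5 in liver, and none fell. Of all genes, 1.06% and 8.25% rose in the acute hippocampus, 0.803% and 2.03% in the continuous hippocampus, and 8.73% and 12.6% in liver. For acute CORT in AS mice, the GR targets that rose numbered 5 with the low-quality covariate and 4 with only H17 and H18, where 150 and 130 of all genes were called. Fkbp5, the GR co-chaperone, rose by log2 fold changes of 0.82 and 1.10 in the acute hippocampus, 0.58 and 1.05 in the continuous hippocampus and 3.43 and 4.14 in liver (WT and AS, edgeR adjusted p from 8.58e-12 to 0.00461). Tsc22d3, which encodes the glucocorticoid-induced leucine zipper, rose by 0.79 and 1.06, 0.53 and 0.78, and 1.25 and 1.74. Nr3c1, the gene of GR, fell in WT (log2 fold change -0.48, edgeR adjusted p = 3.62e-05) and AS mice (-0.34, edgeR adjusted p = 0.00104) in the acute hippocampus, whereas in the continuous hippocampus its changes of -0.36 (edgeR adjusted p = 0.0953) and -0.34 (edgeR adjusted p = 0.1) did not pass. There Nr3c2, the mineralocorticoid receptor gene, fell in AS mice (-0.32, edgeR adjusted p = 0.0206) and had -0.22 in WT mice (edgeR adjusted p = 0.141). The log2 fold changes of Nr3c1 in liver were -0.15 (edgeR adjusted p = 0.0202) and -0.22 (edgeR adjusted p = 7.66e-04).

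Of the 7 other Klf genes, 4 were tested in each hippocampal data set and 3 in liver, and 2 passed a CORT test: Klf5 fell in AS mice of the acute experiment (-0.55, SE 0.160, edgeR adjusted p = 0.0204), although not with the covariate or with only H17 and H18, and Klf3 rose in AS liver (0.39, SE 0.0864, edgeR adjusted p = 0.00206). Of the related Sp genes, which bind the same boxes, 6 were tested in hippocampus and 5 in liver, and Sp4 alone passed a CORT test, in AS liver (-0.65, SE 0.224, edgeR adjusted p = 0.0366). Sp1 (0.25), Sp3 (0.28) and Sp4 (0.38) were higher in AS CORT than in WT CORT mice of the acute experiment, where 24.9% of all genes were called as reported and 0 with the low-quality covariate. Of 11 cofactor genes, Hdac1 (0.29) and Hdac2 (0.26) rose in AS mice of the acute experiment, a share of the list close to the 17.9% of all genes, of which 2612 were called as reported, and 0 of the 11 were called with the covariate or with only H17 and H18. None of the 11 cofactors (0) was called in the continuous hippocampus. Ctbp2 (-0.52) and Kat2b (-0.40) fell in WT liver, and in AS liver Ctbp2 fell (-0.63) and Wwp1, a ubiquitin ligase of KLF proteins, rose (0.23), so that 2 of 11 were called in each genotype, beside 18.6% and 27.5% of all genes. Of 9 metabolic genes that KLF15 or GR control in liver, Prodh, which starts proline breakdown, rose in WT (0.51) and AS liver (0.62), and Pck1 (1.72, edgeR adjusted p = 0.00317) and Tat (0.59), of gluconeogenesis and tyrosine breakdown, rose in AS liver. These are 1 of 9 in WT and 3 of 9 in AS liver, beside the same 18.6% and 27.5%. In the continuous hippocampus Prodh rose as well, by 0.64 in WT and 0.95 in AS mice.

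Patterns most like those of Klf9 and Klf15 were taken from Pearson correlations of log2 CPM over the libraries of each data set, which share treatment groups and sequencing depth. In the 24 acute hippocampi the nearest genes to Klf15 were Arrdc2 (r = 0.91), Gm19439 (0.89), Lfng (0.88), Tsc22d3 (0.87) and Castor1 (0.87), and those to Klf9 were Tsc22d3 (0.81), Mettl11b (0.81), Znfx1 (0.81), Plin4 (0.79) and Nup98 (0.79). Over the 18 continuous hippocampi Klf15 went with Gm37885 (0.97), Sgk1 (0.97), Fam83d (0.96), Nfkbia (0.96) and Gpt2 (0.96), and Klf9 with Parp1 (0.94), Elmod3 (0.94), Fam83d (0.93), Zbtb16 (0.92) and Dip2c (0.92). For the 20 livers the lists were Kcnk5 (0.94), Etnk2 (0.93), Homer2 (0.92), Herpud1 (0.92) and Shb (0.92) for Klf15, and Gskip (0.84), Ogfrl1 (0.83), Kctd15 (0.82), Mug1 (0.82) and Pafah1b2 (0.81) for Klf9. Klf9 and Klf15 correlated with each other at 0.64 in the acute hippocampus, 0.86 in the continuous hippocampus and 0.16 in liver. In liver Klf15 correlated with Klf13 at 0.71, with Klf7 at -0.74 and with Klf12 at -0.79.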

How the data were processed

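The authors deposited whole-number counts of reads per Ensembl gene, made from 100 bp paired-end reads of stranded mRNA libraries with STAR and HTSeq-count on mm10. The annotation release and strand setting of the counting are not given in the sources used here. The tables held 55414 (acute) and 55573 (continuous) identifiers, of which 52133 and 55480 were matched to a symbol, and 5 summary rows that name no gene, with 11.7 to 23.3% of reads, were left out of library sizes and tests. No column lacked a sample (0).

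Each data set was fitted with edgeR 4.0.16 (R 4.3.3) as a quasi-likelihood model with TMM factors and 1 coefficient per group, keeping genes whose normalized count exceeded 20 in 3 or more libraries of any group. The joint fit of both tissues used 8 groups. Benjamini-Hochberg adjustment ran over all genes tested, and the threshold was 0.05. SEs and 95% intervals came from the quasi-likelihood F and its degrees of freedom, CPM used TMM library sizes, and RPKM used union exon lengths of GENCODE M21. Correlations used log2 CPM with a prior count of 2. The code was tested on simulated data.

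Alternatives were DESeq2 1.42.0, limma 3.58.1 (voom with sample weights), other normalization and filtering, GC content and length trends (spline with 5 degrees of freedom), fits of only the groups compared, each library left out, subsets of the acute AS vehicle libraries and all 20 mice. Those on the liver component and library sizes without TMM factors for the joint fit were chosen after seeing the data. All 10 members were named in every comparison, and other genes from fixed lists or as the 5 highest correlations. The members and lists were chosen with earlier results of these data known. Protein sequences were not used here. The study's methods describe both tissues as collected from the same mice, and each number has the same genotype and treatment in both tissues. The numbers may therefore mark shared mice, although no label says so. Over 11017 genes the 18 same-numbered pairs correlated at only -0.08 to 0.08, which cannot exclude shared mice. The joint fit was not blocked and treated all libraries as independent, and the fit with the number as a block is given as an alternative.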

Additional observations from a re-analysis of the deposited data

Results flagged for a closer look

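Among 120 groups of 4 to 6 libraries, 9 held a library whose member CPM stood far from the others by Dixon's criterion (7.5%), and chance flags about 1 in 20 groups. In the hippocampus these were Klf7 in an AS CORT mouse of the acute experiment (H20, 32.3 CPM, others 27.7 to 29.4), Klf13 in a WT CORT mouse of the acute experiment (H8, 440 CPM, others 358 to 380) and Klf10 in an AS CORT mouse of the continuous experiment (H7, 20.2 CPM, others 23 to 23.6). The other 6 were in liver. Klf2 was low in the WT vehicle liver L17 (3.04 CPM, others 4.62 to 5.11), and Klf4 was high in the WT CORT liver L3 (1.24 CPM, others 0.665 to 0.83). L10, an AS CORT liver, stood out for Klf6 (7.06 CPM, others 4.73 to 5.40) and for Klf7 (7.26 CPM, others 3.51 to 3.95). In AS vehicle livers, Klf7 was high in L14 (9.23 CPM, others 7.53 to 7.95) and Klf13 in L2 (114 CPM, others 26 to 33.1). L2 and L3 were on the lower side of the second liver component, and L10, L14 and L17 on the upper side.

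The CORT effect in AS mice differed between liver and hippocampus, by the interaction term of the joint edgeR fit, for Klf7 (log2 difference -0.67) and Klf10 (1.31).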

How the results depend on the processing

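Over 5780 alternatives to the 180 member values, 5650 kept their side of the threshold without a called reversal (179 of these were values called under neither setting that changed sign), 52 lost a call, 76 gained one and 2 reversed. The level of Klf2 in liver against hippocampus went from 0.22 to -0.64 with library sizes alone, and the Klf13 difference in CORT effect between tissues in AS mice went from -0.02 to 0.52 with only the 26 libraries of the other numbers. Where other settings changed a count of members called, the cause was not tested. In the acute hippocampus, CORT in WT mice gave 2 members with limma-voom, with GC and length trends removed and with only H17 and H18 as AS vehicle, and 0 with only the 2 groups compared (1 as reported). CORT in AS mice gave 0 with the low-quality covariate and 1 with only H17 and H18, and 5 with limma-voom, which added Klf6, and with only H13 to H16, which added Klf10 (4 as reported). AS against WT mice with CORT gave 2 with DESeq2, with only the 2 groups, with GC and length trends removed, with only H17 and H18 and with only H13 to H16, 4 with limma-voom and 0 with the covariate (1 as reported). The interaction gave 1 with DESeq2, 2 with limma-voom and 3 with only H13 to H16 (0 as reported). In the continuous hippocampus, CORT in WT mice gave 1 with only the 2 groups or all 20 mice (2 as reported), and CORT in AS mice 2 with only the 12 hippocampi of the other numbers or all 20 mice and 3 with only the 2 groups, which lost Klf10 (4 as reported). In liver, CORT in WT mice gave 1 with limma-voom, the axis covariate or the 14 upper livers (0 as reported), and CORT in AS mice 6 with limma-voom and 5 with only the 2 groups, the covariate or the 14 livers, and 4 with DESeq2, its size factors, no filter or GC and length trends removed (3 as reported). Between tissues, the axis covariate gave 1 in WT mice (0 as reported) and library sizes alone gave 1 and all 20 mice 0 in AS mice (2 as reported). With 1 library left out, the counts ran from 1 to 2, 1 to 3 and 0 to 1 in the acute hippocampus (CORT in WT, AS against WT with CORT, interaction), from 1 to 2 and 2 to 4 in the continuous hippocampus (CORT in WT and AS), from 0 to 3, 3 to 6 and 0 to 1 in liver (CORT in WT and AS, AS against WT with CORT) and from 0 to 1, 0 to 2 and 7 to 8 between tissues (CORT in WT and AS, level).

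Counts over all genes moved by more than 1.5 times in several comparisons. For CORT in AS mice of the acute experiment, 2612 genes were called as reported, 5056 with limma-voom, 150 with the covariate, 130 with only H17 and H18 and 4420 with only H13 to H16. AS against WT mice with CORT went from 3645 to 0 with the covariate. The acute interaction went from 656 to 1226 with DESeq2, 3353 with limma-voom, 297 without the filter, 0 with GC and length trends removed, 1 with the covariate, 0 with only H17 and H18 and 2808 with only H13 to H16. For CORT in WT mice of the continuous hippocampus, 436 became 203 with all 20 mice, and for AS mice 564 became 221. With 1 library left out, the genes called ran from 1533 to 3492 (CORT in AS, 2612 as reported), 7 to 51 (AS against WT with vehicle, 23) and 0 to 1563 (interaction, 656) in the acute hippocampus, from 252 to 464 (CORT in WT, 436), 362 to 627 (CORT in AS, 564), 1 to 6 (AS against WT with vehicle, 2) and 1 to 16 (with CORT, 6) in the continuous hippocampus, and from 1 to 4 (AS against WT with vehicle, 2), 13 to 62 (with CORT, 34) and 0 to 1 (interaction, 0) in liver. The moves over 1.5 times came, for CORT in AS mice, from H14, H15 or H16 in the acute (lowest 1533) and H11 in the continuous hippocampus (362), for CORT in WT mice from H12, H17 or H20 of the latter (lowest 252), and for AS against WT livers with CORT from L5, L8, L12, L15 or L16 (lowest 13) and L10 (62). For the acute interaction most libraries gave such a move, with 0 genes called without H14 and 1563 without H17.

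A replicate block on the number after H and L, which no label says is a mouse, left the members called between tissues at 0, 2 and 7 and moved the genes called from 1252 to 777 (CORT in WT), from 1936 to 1380 (CORT in AS) and from 14272 to 14083 (level). With the block, Klf10 had 1.43 and Klf7 -0.74. None of the 18 pairs correlated best with its own number (0). No paired analysis was possible within a tissue because each number occurs once there.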
